A study of Danio rerio with 21 samples.

Results

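The 9 genes described here mark macrophages and white blood cells in general: mpeg1.1 (ENSDARG00000055290), mpeg1.2 (ENSDARG00000043093), csf1ra (ENSDARG00000102986), csf1rb (ENSDARG00000053624), spi1b (ENSDARG00000000767), irf8 (ENSDARG00000056407), lcp1 (ENSDARG00000023188), coro1a (ENSDARG00000054610) and ptprc (ENSDARG00000071437). They were taken by identifier, for what they are known to mark, from the 31952 genes of a zebrafish count table. The choice was made with earlier results of these data known. Each of 21 RNA-seq libraries was made from nuclei of 1 adult heart, taken in a pulldown aimed at macrophages. Nuclei were labelled in vivo and pulled down on streptavidin beads. All fish carried the BAC transgene ox133. Its mpeg1:BirA-Citrine part has the mpeg1 promoter drive a biotin ligase, and in its bactin:Avi-Cerulean-Rangap part a ubiquitous promoter drives a nuclear envelope protein with an Avi tag, so that biotin is added to the nuclei of cells in which mpeg1 is or was active. The groups were resection of the ventricular apex at 1 dpi (days post injury; n = 3) and 5 dpi (n = 2), cryoinjury with a frozen probe at 1 dpi (n = 2), 5 dpi (n = 2) and 14 dpi (n = 3), and sham surgery, in which the ventricle was exposed and left uninjured, at 1 dpi (n = 3), 5 dpi (n = 2) and 14 dpi (n = 4).

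Mpeg1 proteins are perforin-like pore formers of phagocytes, and the promoter of mpeg1.1 is the usual tool for labelling macrophages in zebrafish. Csf1r is the receptor for Csf1 and Il34, the ligands on which macrophage survival and spread depend, and zebrafish carry it as the duplicates csf1ra and csf1rb. Spi1b (PU.1) and Irf8 are the transcription factors that set the myeloid fate and, within it, the macrophage over the neutrophil. L-plastin (lcp1) bundles actin, Coronin 1A (coro1a) regulates actin turnover, and Ptprc (CD45) is the receptor tyrosine phosphatase at the surface of white blood cells, so these last genes are shared with neutrophils and lymphocytes.

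Library totals ran between 10577395 and 61141100 counts, and levels are given below as CPM, each count scaled to the total of its library. Values of 3 counts or fewer, which were 0.0491 to 0.284 CPM depending on the library, were treated as not detectable at that depth, a limit that covers counting error only. The label of the samples, macrophages, was checked against marker lists. The macrophage list (17 of its 20 symbols were matched, and 6 of these are among the 9 genes) had 11 to 17 genes above 3 counts and summed to 101 to 1577 CPM. Cardiomyocyte genes (7 of 11 matched) were above 3 counts in every library, with 27359 to 78084 CPM, so RNA of heart muscle was abundant in all groups and far above the macrophage list. Fast skeletal muscle genes summed to 2314 to 13754 CPM, of which ckma alone held 2261 to 9370 CPM. Fibroblast and epicardium genes summed to 293 to 4316 CPM and epidermis genes to 102 to 5720 CPM. The matched erythrocyte genes summed to 140 to 5226 CPM and the matched endothelium genes to 128 to 424 CPM. Neutrophil genes (8 of 9 matched) summed to 0.163 to 125 CPM, with ncf1 and cpa5 above 3 counts in 16 libraries, mmp9 in 14 and the other 5 in 1 to 8, and T and NK cell genes and B cell genes stayed at or below 8.02 and 2.63 CPM. The resection libraries of 1 dpi stood apart in breadth, with 20122 to 21742 genes holding a count against 12608 to 14075 in sham of 1 dpi. Labels mark 3 libraries as merged (sham 5 dpi replicate 2, sham 14 dpi round 1 replicate 3 and cryoinjury 14 dpi round 2 replicate 1). In bulk libraries fewer cells of a type and less RNA per cell cannot be told apart.

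Detection itself differed between the genes. Spi1b, lcp1 and ptprc were above 3 counts in all 21 libraries, mpeg1.1 and coro1a in 20, csf1rb in 19, irf8 in 18, csf1ra in 17 and mpeg1.2 in 7, with mpeg1.2 at 0 counts in 12. All 9 genes were above 3 counts in 7 libraries, 8 in 7, 7 in 5, 6 in 1 and 4 in 1. The library with 4 was cryoinjury 5 dpi replicate 1, in which mpeg1.1, mpeg1.2, csf1ra and csf1rb were all at 0 of 13014699 counts and coro1a had 1 count. The same library held irf8 at 17.98 CPM and spi1b at 11.4 CPM, and its macrophage list summed to 574 CPM. Sham 14 dpi round 2 replicate 3 had 6, with mpeg1.2, csf1ra and irf8 at 0. Labelling of nuclei came from the mpeg1 promoter, so the 0 of mpeg1.1 and mpeg1.2 in that cryoinjured heart goes against its label at the level of these transcripts, and comparisons that rest on it are given below with and without it.

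**Figure D1:**
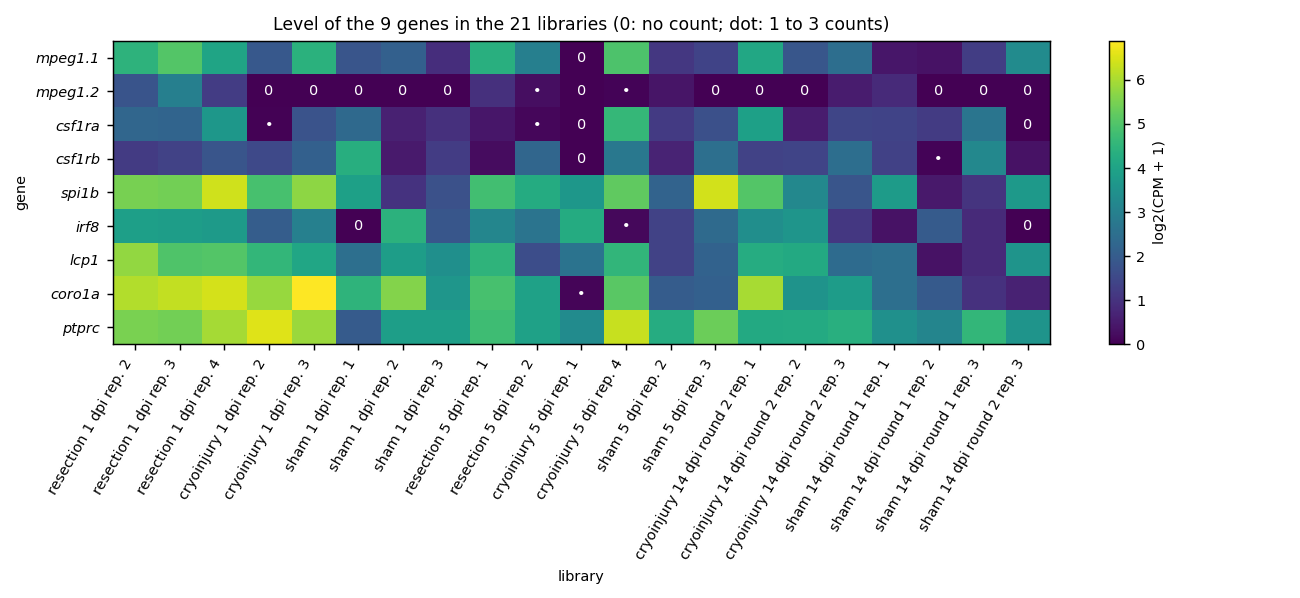
Level of the 9 genes (rows) in the 21 libraries (columns) as log2(CPM + 1), with 0 marking no count and a dot marking 1 to 3 counts. Ptprc, lcp1 and spi1b are filled in every column, mpeg1.2 is at 0 in 12, and cryoinjury 5 dpi replicate 1 lacks mpeg1.1, mpeg1.2, csf1ra and csf1rb together.

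At 1 dpi the summed level of the 9 genes was higher after injury than in sham. They summed to 248 to 306 CPM in the 3 resected hearts and to 208 to 275 CPM in the 2 cryoinjured hearts, against 42.7 to 100.2 CPM in the 3 sham hearts. At 5 dpi they summed to 65.1 and 132 CPM after resection and to 43.6 and 229 CPM after cryoinjury, against 31.2 and 143 CPM in sham. At 14 dpi they summed to 51.6 to 171 CPM after cryoinjury, against 15.7 to 43.7 CPM in sham. In CPM both injured groups of 1 dpi and the cryoinjured group of 14 dpi lay above all sham libraries of their day, while the groups of 5 dpi overlapped. After TMM scaling, which corrects for differences in library composition, the sums of 1 dpi were 142 to 173 CPM after resection and 246 to 424 CPM after cryoinjury, against 76.8 to 106 CPM in sham, and those of 14 dpi overlapped, with 53.9 to 199 CPM after cryoinjury against 18.4 to 54.9 CPM in sham. Spi1b, lcp1, coro1a and ptprc made up 76.8% to 85.9% of the sum after resection and 88.1% to 96.3% after cryoinjury, against 62.7% to 86.5% in sham of 1 dpi. The sum does not stand for each gene, since csf1rb averaged 1.80 CPM after resection and 2.62 CPM after cryoinjury, against 6.93 CPM in sham of 1 dpi, and mpeg1.2 was at 0 after cryoinjury.

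**Figure D2:**
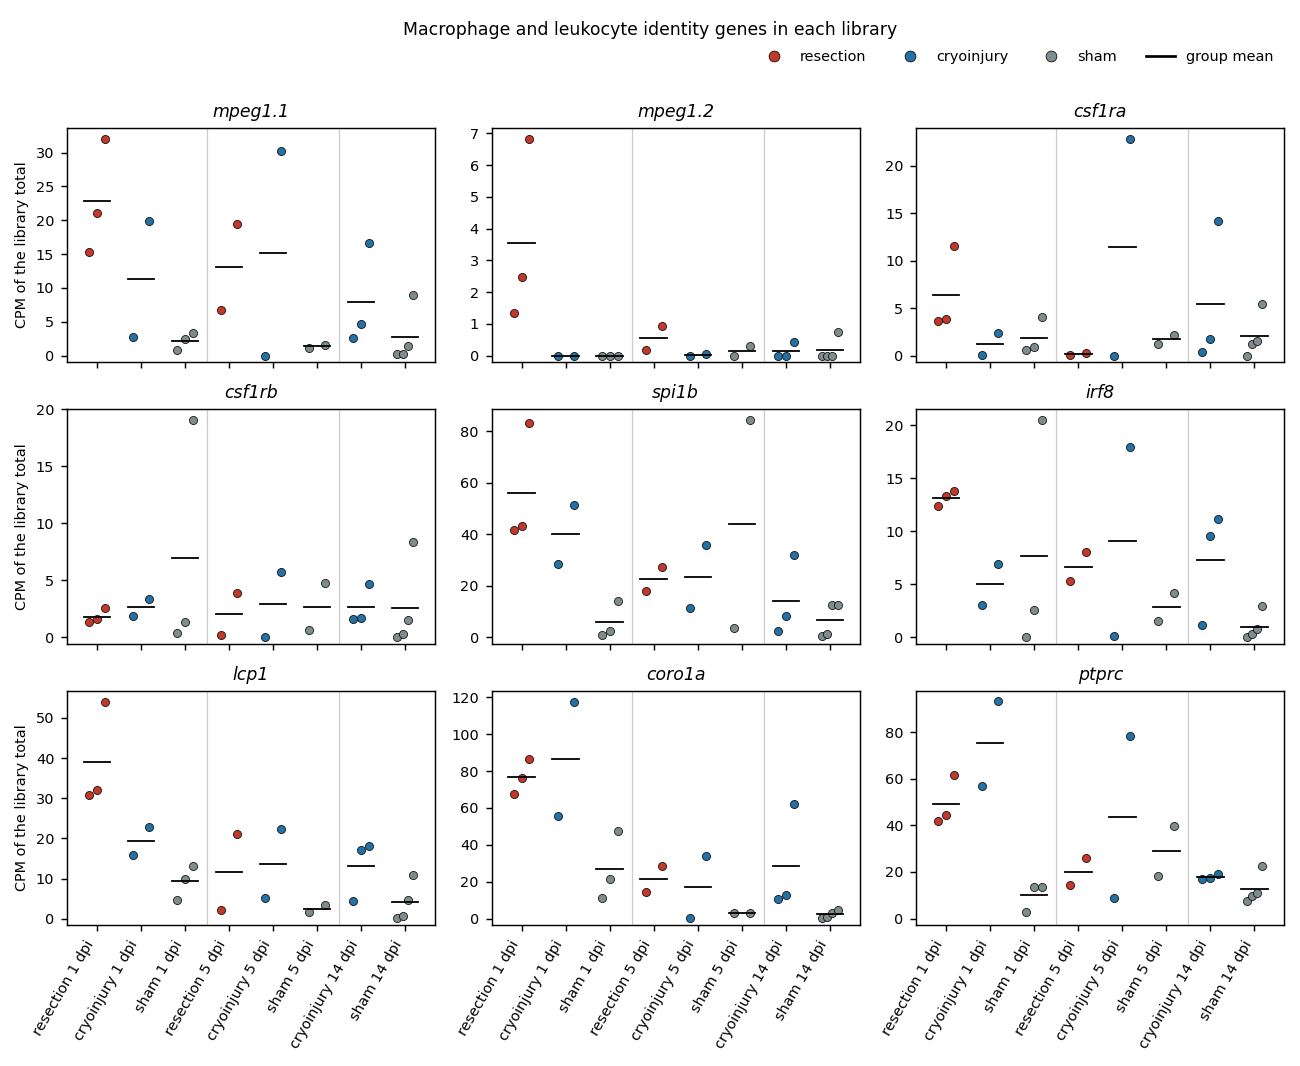
CPM of the library total for each of the 9 genes, 1 panel per gene, in the 8 groups (points: libraries; bars: group means). Spi1b, lcp1, coro1a and ptprc are higher in every injured heart of 1 dpi than in the 3 sham hearts, and most other groups overlap.

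Resection against sham at 1 dpi asks how the nuclei of a heart that regenerates after amputation differ from those of an uninjured one. The macrophage genes mpeg1.1 and mpeg1.2 and the factor spi1b were higher in all 3 resected hearts, in CPM and after TMM. After TMM these were 3 of 9 genes, not far from the 26.7% of all genes that were higher without overlap. Of the 9 genes 1, mpeg1.2, passed the test (edgeR's quasi-likelihood test, adjusted p under 0.05 over 15764 genes). Over all genes tested 13.7% passed it, in either direction, so 1 of 9 is close to that background, and the same 1 gene had an unadjusted p under 0.05, beside 24.3% of all genes. Mpeg1.2, a second copy of the perforin-like gene, had 40, 122 and 23 counts (2.47, 6.83 and 1.35 CPM) in resection replicates 2, 3 and 4, and 0 counts in all 3 sham libraries. The groups did not overlap, and in CPM the level was at least 45.1-fold higher after resection, against a floor of 3 counts over the sham group. The bound was not computed after TMM, where mpeg1.2 averaged 2.04 CPM after resection, against 3.55 CPM without this scaling. The TMM factors of sham, 0.469 to 0.944, also raise that floor, so the bound is smaller after TMM. An SE, here and below, is the size of the fitted log2 fold change divided by the square root of the test's F statistic. The fitted log2 fold change of mpeg1.2, 9.10 (SE 1.90, adjusted p = 0.0316, higher in 3 of 3), depends on the prior count because sham held none. For the same reason the gene passed the count filter through the resected libraries alone, so the test could only find it higher. The call was lost without any 1 of the 6 libraries, with adjusted p between 0.0524 (without sham replicate 1) and 0.0964 (without resection replicate 2). The further values were 0.0663 without resection replicate 3, 0.0944 without resection replicate 4, 0.0584 without sham replicate 2 and 0.0669 without sham replicate 3. Over all genes these 6 fits called 0 to 177, where the fit with all libraries called 2154. Over all alternatives its adjusted p ran between 9.6e-05 and 0.499. DESeq2 called mpeg1.2 (adjusted p = 9.6e-05) and also mpeg1.1 (adjusted p = 0.00548), 2 of 9 genes beside 23.2% of all genes that DESeq2 called.

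Mpeg1.1 had 21.1, 32.04 and 15.3 CPM after resection, against 2.54, 3.29 and 0.867 CPM in sham of 1 dpi. All resected hearts were above all sham hearts. In CPM the mean was 10.2-fold higher, 22.8 ± 8.48 CPM after resection and 2.23 ± 1.24 CPM in sham (SD, n = 3 each). After TMM scaling the means of mpeg1.1 were 13.0 CPM after resection and 2.72 CPM in sham. It did not pass the edgeR test (log2 fold change 2.43, SE 1.13, adjusted p = 0.237). Reads of the endogenous gene and of any mpeg1 sequence in the transgene cannot be told apart. Spi1b had 43.2, 41.7 and 83.2 CPM after resection, against 14.1, 1.03 and 2.25 CPM in sham, again without overlap. Irf8 had 13.8, 13.3 and 12.4 CPM after resection, against 0, 20.5 and 2.60 CPM in sham, so its sham libraries lay on both sides of the narrow resection range. The receptor genes did not separate the groups. Csf1ra had 3.82, 3.64 and 11.6 CPM after resection, against 4.09, 0.556 and 0.948 CPM in sham (log2 fold change 0.78, SE 1.42, adjusted p = 0.834). Csf1rb had 1.30, 1.57 and 2.53 CPM after resection, against 19.1, 0.409 and 1.33 CPM in sham, where replicate 1 alone carried the high mean.

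The genes shared by all white blood cells were higher after resection in CPM and overlapped once composition was taken into account. Lcp1 had 54.1, 30.8 and 32.2 CPM after resection, against 4.72, 13.2 and 9.86 CPM in sham (log2 fold change 0.92, SE 0.84, adjusted p = 0.619). Coro1a averaged 76.7 ± 9.43 CPM after resection and 26.8 ± 18.7 CPM in sham, and ptprc 49.2 ± 10.6 CPM after resection and 9.97 ± 6.08 CPM in sham (SD, n = 3 each). In CPM, 6 of the 9 genes were higher in every resected heart than in every sham heart, beside 42.8% of all genes tested. After TMM scaling 3 of 9 were (mpeg1.1, mpeg1.2 and spi1b), beside 26.7% of all genes. TMM-scaled CPM here and elsewhere use factors over all 21 libraries, whereas each test computed its factors within the libraries of its groups. Over the 21 libraries the TMM factors of the resection libraries were 1.72 to 1.78, against 0.469 to 0.944 in sham of 1 dpi. In the test the median log2 fold change of all genes was 0.26 with TMM and 1.25 with library totals alone. The median of the 9 genes was 0.92 with TMM.

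Markers of other cells moved with this comparison. Neutrophil genes summed to 43.1 to 89.1 CPM after resection and 0.163 to 27.1 CPM in sham, with mpx and mmp9 called higher. Epidermis genes summed to 3113 to 5720 CPM after resection and 299 to 1658 CPM in sham, with 4 of 5 called higher, and cardiomyocyte genes to 27359 to 47685 CPM after resection and 51105 to 77829 CPM in sham, with 3 of 7 called lower. Transcripts of the mitochondrial genome were called lower for 7 of 9, and of 7 fast skeletal muscle genes 6 to 7 were above 3 counts after resection and 2 to 3 in sham. Over all genes 11.3% were called higher and 13.7% in either direction, 2154 genes in all. Leaving out 1 library at a time, 0 to 177 genes were called. The part of these markers in the levels of the 9 genes was not tested. The 11 macrophage markers outside the 9 genes summed to 846 to 1207 CPM after resection, against 60.8 to 216 CPM in sham. These sums were not computed after TMM. Of the 16 genes of the macrophage list tested, mpeg1.2 alone was called, and it is 1 of the 9 genes.

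**Figure D3:**
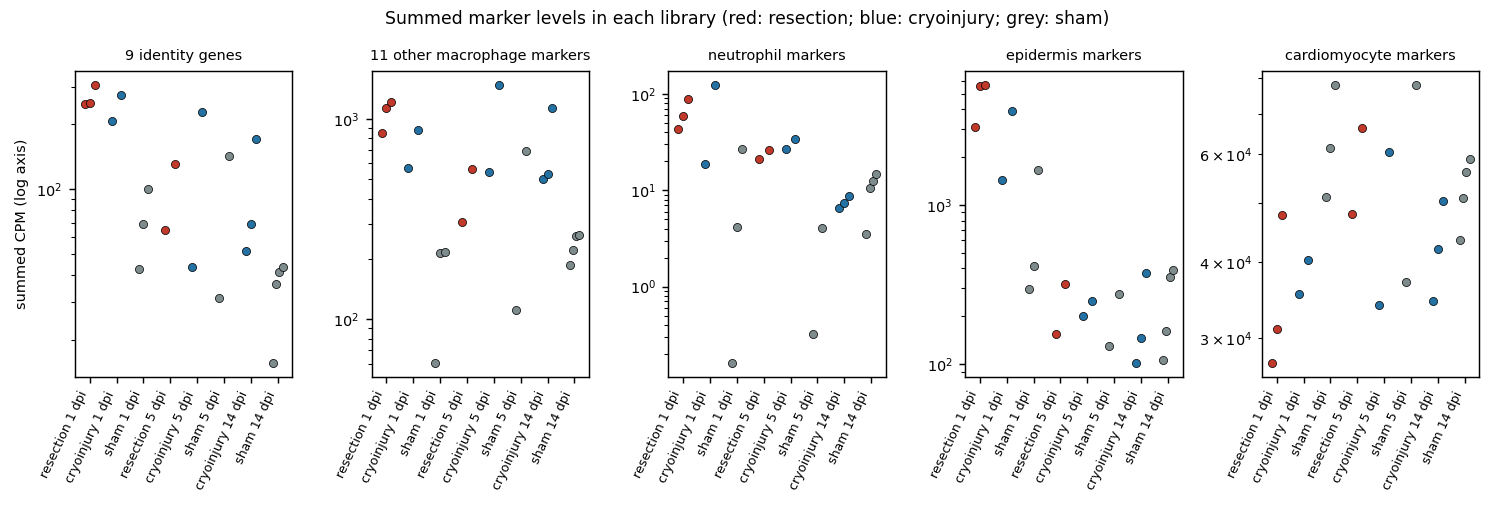
Summed CPM on log axes of the 9 genes and of 4 marker lists in each library, by group. At 1 dpi the 9 genes and the other macrophage markers sum higher in every injured heart than in any sham heart, neutrophil and epidermis markers do so after resection, and cardiomyocyte markers are at 27359 CPM or more in every library.

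After cryoinjury at 1 dpi the white blood cell genes and spi1b were higher than in sham, and mpeg1.2 was not detected. None of the 8 genes tested passed the edgeR test, 1 had an unadjusted p under 0.05 (beside 6.71% of all genes) and DESeq2 called 0, where edgeR called 0.146% of all 13020 genes and DESeq2 6.58%. Ptprc had 93.2 and 57.0 CPM in cryoinjury replicates 2 and 3, against 2.96, 13.5 and 13.4 CPM in sham (log2 fold change 2.59, SE 1.18, adjusted p = 0.721, higher in 2 of 2). Coro1a had 55.7 and 118 CPM after cryoinjury, against 21.4, 47.7 and 11.4 CPM in sham. Both genes were higher in each cryoinjured heart than in any sham heart, as were spi1b, with 28.4 and 51.5 CPM after cryoinjury, and lcp1. Lcp1 had 22.8 and 16.0 CPM after cryoinjury, against 4.72, 13.2 and 9.86 CPM in sham (log2 fold change 0.86, SE 1.71, adjusted p = 0.997). These 4 of 9 genes without overlap stood beside 12.7% of all genes in CPM, and the same number, beside 14.6% of all genes, were without overlap after TMM.

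The receptor genes, irf8 and mpeg1.1 overlapped between cryoinjury and sham. Csf1ra had 0.0355 and 2.41 CPM after cryoinjury, the lower of these being 1 count, against 4.09, 0.556 and 0.948 CPM in sham (log2 fold change -0.44, SE 2.95, adjusted p = 0.997). That value was 0.55 without cryoinjury replicate 2 and 0.36 without sham replicate 1, so its direction rested on single libraries. Mpeg1.1 had 2.70 and 20.0 CPM after cryoinjury, the lower of which lay among the sham values. Neutrophil genes summed to 125 and 18.7 CPM after cryoinjury, against 0.163 to 27.1 CPM in sham, where the highest sum was ncf1 alone. Of these 8 genes 7 were above 3 counts in both cryoinjured hearts, against 1 to 2 in sham. The 5 tested had a median log2 fold change of 7.75, and 0 were called. Epidermis genes summed to 3898 and 1441 CPM after cryoinjury, against 299 to 1658 CPM in sham. Of the 19 genes called in this comparison 3 were on the marker lists. Krt5, an epidermal keratin, was called higher, with 649.7 to 1853 CPM after cryoinjury and 0.0164 to 0.986 CPM in sham (adjusted p = 0.000426). The fast skeletal muscle genes pvalb1, at 11.9 to 189 CPM after cryoinjury and 0 in sham, and tnnt3b, at 3.80 to 1220.2 CPM after cryoinjury and 0.0271 to 0.916 CPM in sham, were called higher too. All 7 fast skeletal muscle genes were above 3 counts after cryoinjury, against 2 to 3 in sham. The part of these markers in the levels of the 9 genes was not tested. The 2 comparisons with sham at 1 dpi share the same sham libraries.

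**Figure D4:**
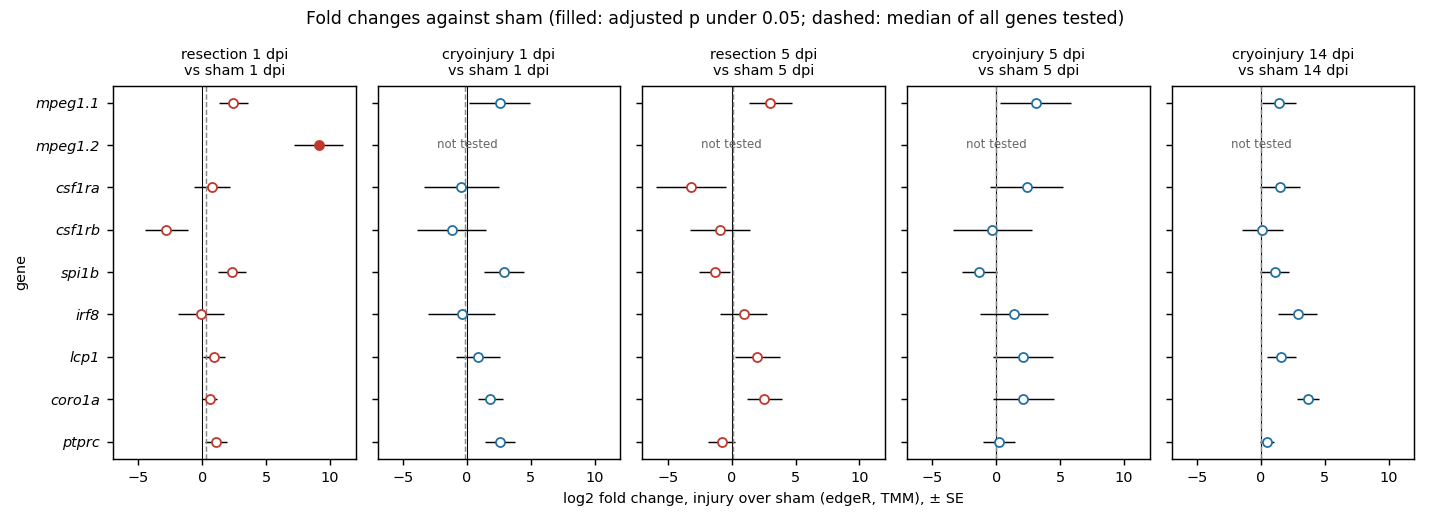
Log2 fold change of each gene for the 5 comparisons of injury over sham (edgeR with TMM). Bars show the SE, derived from the test's F statistic. Filled points have an adjusted p under 0.05, and the dashed line is the median of all genes tested. Mpeg1.2 after resection at 1 dpi is the only filled point, with a value of 9.10, and coro1a is at 3.67 after cryoinjury at 14 dpi.

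Set directly against each other at 1 dpi, resection and cryoinjury gave the smallest p for ptprc and mpeg1.2. None of the 9 genes passed the edgeR test, 3 had an unadjusted p under 0.05 (beside 30.3% of all genes), and 2.09% of all 17338 genes passed. DESeq2 called 2 of the 9, mpeg1.2 (adjusted p = 0.000782) and ptprc (adjusted p = 0.0201), beside 23.8% of all genes. Ptprc had 44.3, 41.9 and 61.4 CPM after resection, against 93.2 and 57.0 CPM after cryoinjury (log2 fold change -1.83, SE 0.40, adjusted p = 0.0678). These ranges overlap in CPM, and after TMM all 3 resected hearts were below both cryoinjured ones. Mpeg1.2 was detected in 3 of 3 resected hearts and had 0 counts in both cryoinjured hearts. In CPM it was at least 41.6-fold higher after resection, against a floor of 3 counts over the cryoinjured group. This bound was not computed after TMM. There it is smaller, since the TMM factors of the cryoinjured hearts, 0.846 and 0.648, raise that floor and those of the resected hearts lower the level. Here too it passed the count filter through the resected hearts alone. Neither mpeg1.1 nor spi1b separated the injuries. Csf1ra was at 0.91 on the log2 scale (SE 1.69, adjusted p = 0.754) and lcp1 at -0.22 (SE 0.58, adjusted p = 0.828).

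This comparison depended on scaling and on single cryoinjured hearts. In CPM, 4 genes (mpeg1.2, csf1ra, irf8 and lcp1) were higher in every resected heart than in both cryoinjured hearts, beside 54.8% of all genes higher. After TMM 1 was higher and 3 (csf1rb, coro1a and ptprc) were lower, beside 33.6% of all genes higher and 15.6% lower. The median of all genes was 0.43 with TMM and 1.72 with library totals, and lcp1 turned to 1.01 with library totals. Without cryoinjury replicate 2, coro1a (adjusted p = 0.00797) and ptprc (adjusted p = 0.0216) were called lower after resection, beside 20.8% of all genes called, and csf1ra was -0.09. Without cryoinjury replicate 3, mpeg1.2 (adjusted p = 0.0366) and csf1ra (log2 fold change 6.29, adjusted p = 0.0241) were called higher and ptprc lower (adjusted p = 0.00776), beside 36.5% of all genes called and a median of all genes of 2.37. The lone cryoinjured library was then assumed to vary like the resected ones. Other markers moved with this comparison. All 9 mitochondrial transcripts were called lower, with 2.43% to 3.14% of the counts after resection and 5.59% to 11.8% after cryoinjury, as were the cardiomyocyte genes tnnc1a and cmlc1 (2 of 7) and the macrophage gene lgmn, with 92.0 to 168 CPM after resection and 343 to 408 CPM after cryoinjury. Alas2, an erythrocyte gene, was called higher, with 241 to 838 CPM after resection and 10.7 to 14.0 CPM after cryoinjury. Their part in the levels of the 9 genes was not tested.

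At 5 dpi, with 2 hearts in each group, mpeg1.1 and coro1a were higher in both resected hearts than in both sham hearts and csf1ra was lower, and no gene passed the test. Of 8 genes tested by edgeR 0 were called, 0 had an unadjusted p under 0.05 (beside 3.26% of all genes) and DESeq2 called 0, where edgeR called 0% of all 15423 genes and DESeq2 1.07%. Mpeg1.1 had 19.5 and 6.81 CPM after resection, against 1.16 and 1.62 CPM in sham. Coro1a had 28.4 and 14.5 CPM after resection, against 3.04 and 3.29 CPM in sham (log2 fold change 2.56, SE 1.39, adjusted p = 1.00). Both genes were without overlap, together with irf8 in CPM only. That made 3 of 9 genes higher in CPM, beside 20.1% of all genes. After TMM it was 2 of 9, close to the 17.3% of all genes. Csf1ra had 0.326 and 0.0945 CPM after resection, which were 9 counts and 1 count, against 1.27 and 2.18 CPM in sham (log2 fold change -3.17, SE 2.76, adjusted p = 1.00). It was the 1 of 9 genes lower without overlap, close to the 11.2% of all genes in CPM and 13.9% after TMM. Lcp1 had 21.1 and 2.08 CPM after resection, against 1.57 and 3.48 CPM in sham (log2 fold change 2.01, SE 1.74, adjusted p = 1.00), a value that was -0.66 without resection replicate 1. Spi1b had 27.1 and 17.96 CPM after resection, against 3.54 and 84.4 CPM in sham, whose 2 libraries held the lowest and the highest of these levels. Neutrophil genes summed to 21.3 to 26.2 CPM after resection and 27.0 to 34.1 CPM after cryoinjury, against 0.325 to 4.05 CPM in sham of 5 dpi, and their part was not tested.

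After cryoinjury at 5 dpi the 2 hearts were unlike each other in most of the genes. Mpeg1.1 had 0 and 30.2 CPM in cryoinjury replicates 1 and 4, against 1.16 and 1.62 CPM in sham (log2 fold change 3.08, SE 2.77, adjusted p = 1.00). Csf1ra had 0 and 22.9 CPM after cryoinjury, against 1.27 and 2.18 CPM in sham (log2 fold change 2.36, SE 2.84, adjusted p = 1.00), and irf8 had the reverse order, 17.98 and 0.106 CPM (2 counts) after cryoinjury. For these genes the cryoinjured hearts held both the lowest and the highest value. Without replicate 4, mpeg1.1 was at -7.75 and csf1ra at -8.07, and without replicate 1 they were at 4.09 and 3.37. Lcp1, with 5.15 and 22.3 CPM after cryoinjury against 1.57 and 3.48 CPM in sham, was the 1 gene of 9 without overlap (log2 fold change 2.08, SE 2.37, adjusted p = 1.00; 2.76 without replicate 1), beside 18% of all genes in CPM and 15.1% after TMM. Of 8 genes tested 0 were called by edgeR, 0 had an unadjusted p under 0.05 (beside 3.62% of all genes) and DESeq2 called 0, where edgeR called 0% of all 14286 genes and DESeq2 2.06%. The sham libraries are those of the comparison with resection.

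Resection against cryoinjury at 5 dpi gave 0 calls among 7 genes tested with edgeR, 0 at an unadjusted p under 0.05 (beside 5.19% of all genes) and 0 with DESeq2, where edgeR called 0% of all 14709 genes and DESeq2 1.66%. The smallest p belonged to ptprc, with 25.9 and 14.4 CPM after resection, against 8.99 and 78.4 CPM after cryoinjury (log2 fold change -0.90, SE 1.07, adjusted p = 1.00). The resected hearts lay between the cryoinjured ones, and the value was 1.32 without cryoinjury replicate 4 and -1.74 without replicate 1. Lcp1 was at 0.05 (SE 1.54, adjusted p = 1.00), at -0.01 with DESeq2, at -2.71 without resection replicate 1 and at -0.64 without cryoinjury replicate 1. Csf1ra did not pass the count filter, with 433 counts in cryoinjury replicate 4 but 0 in replicate 1, and 9 and 1 after resection. Without cryoinjury replicate 1 it was tested and called lower after resection (log2 fold change -6.38, adjusted p = 0.0327), beside 0.641% of all genes called. Without cryoinjury replicate 4, mpeg1.1 (log2 fold change 10.88, adjusted p = 0.00582) and coro1a (8.15, adjusted p = 0.00297) were called higher after resection, beside 8.76% of all genes called. In both fits the cryoinjured group was 1 library, so the spread came from the 2 resected hearts alone, and in the second that library was the one with 0 counts of mpeg1.1 and 1 count of coro1a. In 1 of 9 genes, mpeg1.2, the groups did not overlap, beside 20.1% of all genes higher in CPM and 20.8% after TMM, with 26 and 2 counts after resection and 0 and 1 count after cryoinjury, so that 1 library alone was above 3 counts.

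At 14 dpi coro1a separated cryoinjury and sham. It had 62.2, 10.6 and 13.0 CPM in the 3 cryoinjured hearts, against 4.72, 2.85, 0.978 and 0.590 CPM in the 4 sham hearts. Every cryoinjured heart was above every sham heart, the mean was 12.5-fold higher, and the log2 fold change was 3.67 (SE 0.87), with an adjusted p of 0.368 that did not pass. Of 8 genes tested, 0 were called by edgeR, 1 had an unadjusted p under 0.05 (beside 5.72% of all genes) and DESeq2 called 0, where edgeR called 0% of all 15020 genes and DESeq2 1.13%. Coro1a was called with no filter on low counts (adjusted p = 0.000413), beside 0.712% of all genes called. It was the 1 gene of 9 without overlap in CPM and after TMM, beside 4.65% and 4.42% of all genes. The 3 cryoinjured hearts belonged to round 2 of the labels and the sham hearts to round 1 (3 hearts) and round 2 (1 heart, 0.590 CPM), so round and injury can only partly be told apart, and with round as a covariate the log2 fold change of coro1a was 5.43 (SE 1.69, adjusted p = 0.755). Over all alternatives the adjusted p of coro1a ran between 0.000413 and 1.00.

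Cryoinjury replicate 1 of 14 dpi was the highest of its day for mpeg1.1, csf1ra, spi1b, lcp1 and coro1a. Csf1ra had 14.2, 0.435 and 1.71 CPM after cryoinjury, against 1.60, 1.28, 5.45 and 0 CPM in sham (log2 fold change 1.49, SE 1.60, adjusted p = 0.986). Without that heart csf1ra was at -0.97, and with round as a covariate it was at 10.36 (adjusted p = 0.755). Lcp1 had 18.2, 17.2 and 4.29 CPM after cryoinjury, against 4.70, 0.256, 0.768 and 10.8 CPM in sham (log2 fold change 1.60, SE 1.11, adjusted p = 0.946), with 2 of 3 cryoinjured hearts above all sham hearts. Irf8 had 9.56, 11.1 and 1.17 CPM after cryoinjury, against 0.260, 2.94, 0.768 and 0 CPM in sham, and was likewise above all sham hearts in 2 of 3. All 8 genes tested had a positive log2 fold change, where 49.4% of all genes did, and their median was 1.45, where that of all genes was -0.01. The signs of coro1a, irf8, lcp1 and ptprc stayed positive under every alternative run, whereas mpeg1.1 was at -0.34 with round as a covariate, spi1b at -0.36 without cryoinjury replicate 1, and csf1rb between -0.54 and -0.10 without each of 4 single libraries. The 11 other macrophage markers summed to 501 to 1135 CPM after cryoinjury, against 186 to 263 CPM in sham. Of the 16 genes of the macrophage list tested, 0 were called. Fibroblast and epicardium genes summed to 888.2 to 4316 CPM after cryoinjury, above the 395 to 777 CPM of sham, with 0 of 8 called and a median log2 fold change of 1.395. Erythrocyte genes had a median of -2.86, with 140.3 to 365 CPM after cryoinjury and 330.4 to 4043 CPM in sham, and neutrophil genes summed to 6.55 to 8.66 CPM after cryoinjury and 3.49 to 14.8 CPM in sham. The part of these markers was not tested.

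Along the days after resection the levels in CPM were lower at 5 dpi than at 1 dpi for most of the genes, and after TMM few of them separated the days. Csf1ra had 0.326 and 0.0945 CPM at 5 dpi, against 3.82, 3.64 and 11.6 CPM at 1 dpi (log2 fold change -4.06, SE 1.43, adjusted p = 0.171), and DESeq2 called it lower (adjusted p = 0.00835). Coro1a had 28.4 and 14.5 CPM at 5 dpi, against 67.7, 76.0 and 86.5 CPM at 1 dpi. Neither gene overlapped between the days, in CPM or after TMM. Lcp1 had 21.1 and 2.08 CPM at 5 dpi, against 54.1, 30.8 and 32.2 CPM at 1 dpi (log2 fold change -0.94, SE 0.84, adjusted p = 0.61), and was called lower without resection replicate 1 of 5 dpi (-3.72, adjusted p = 0.038), beside 2.67% of all genes called. Of 9 genes tested 0 were called by edgeR, 2 had an unadjusted p under 0.05 (beside 19.4% of all genes) and DESeq2 called 1, where edgeR called 1.68% of all 17978 genes and DESeq2 12.6%. In CPM 7 of 9 genes were lower without overlap, beside 38.1% of all genes. After TMM it was 2 of 9, close to the 22.6% of all genes. The median of all genes was -0.10 with TMM and -0.76 with library totals. Epidermis genes summed to 156 to 321 CPM at 5 dpi and 3113 to 5720 CPM at 1 dpi, with epcam, krt5 and krt17 called lower. The erythrocyte factor gata1a and the macrophage marker apoeb were called lower as well, apoeb with 6.30 to 37.8 CPM at 5 dpi and 293 to 449 CPM at 1 dpi, and the cardiomyocyte gene tnnc1a was called higher. Their part in the levels of the 9 genes was not tested.

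After cryoinjury, coro1a was lower at 5 dpi, with 0.0768 CPM (1 count) and 34.0 CPM, than at 1 dpi, with 55.7 and 118 CPM (log2 fold change -2.99, SE 1.498, adjusted p = 0.588). It did not overlap, and it was called lower without cryoinjury replicate 2 of 1 dpi (-3.69, adjusted p = 0.044, beside 0.525% of all genes called) or without replicate 4 of 5 dpi (-10.58, adjusted p = 9.15e-05, beside 1.24%), while it was at -2.08 without replicate 1 of 5 dpi (adjusted p = 0.979). Csf1ra was at 2.49 (SE 3.204, adjusted p = 0.919), at -8.38 without replicate 4 of 5 dpi and at 3.40 without replicate 1. Lcp1 was at -1.05 (SE 1.65, adjusted p = 0.943) and at -0.44 without replicate 1 of 5 dpi. Of 8 genes tested 0 were called by edgeR, 0 had an unadjusted p under 0.05 (beside 9.38% of all genes) and DESeq2 called 0, where edgeR called 0.0229% of all 13114 genes and DESeq2 6.51%. In CPM 1 of 9 genes, coro1a, was lower without overlap, which is close to the 12.8% of all genes. After TMM 4 of 9 were (spi1b, lcp1, coro1a and ptprc), beside 21.9% of all genes.

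Between cryoinjury at 14 dpi and at 5 dpi no gene was without overlap in CPM or after TMM, beside 10.1% of all genes higher and 15.9% lower in CPM. Ptprc had the smallest p, with 17.1, 17.4 and 19.2 CPM at 14 dpi, against 8.99 and 78.4 CPM at 5 dpi (log2 fold change -0.86, SE 0.85, adjusted p = 0.908), a value that was 1.34 without replicate 4 of 5 dpi and -1.68 without replicate 1. All 3 hearts of 14 dpi lay between the 2 hearts of 5 dpi. Csf1ra was at -0.60 (SE 2.11, adjusted p = 0.99), at 10.29 without replicate 4 of 5 dpi and at -1.59 without replicate 1. Lcp1 was at 0.40 (SE 1.14, adjusted p = 0.984) and at -0.27 without replicate 1 of 5 dpi. Of 8 genes tested 0 were called by edgeR, 0 had an unadjusted p under 0.05 (beside 6.55% of all genes) and DESeq2 called 0, where edgeR called 0% of all 15542 genes and DESeq2 3.24%.

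Among the sham hearts coro1a was lower at 14 dpi than at 1 dpi. It had 4.72, 2.85, 0.978 and 0.590 CPM at 14 dpi, against 21.4, 47.7 and 11.4 CPM at 1 dpi. All 4 later hearts were below all 3 earlier ones, and the mean was 11.7-fold lower at 14 dpi (log2 fold change -3.69, SE 1.07, adjusted p = 0.192, DESeq2 adjusted p = 0.00119). Of 8 genes tested, 0 were called by edgeR, 1 had an unadjusted p under 0.05 (beside 15.1% of all genes) and DESeq2 called 1, where edgeR called 0% of all 13883 genes and DESeq2 12.4%. Coro1a was the 1 of 9 genes without overlap, beside 3.36% of all genes lower in CPM and 5.34% after TMM. Csf1ra was at -0.16 (SE 1.89, adjusted p = 0.984) and had the opposite sign with library totals (0.16), without sham replicate 1 of 1 dpi (0.70), without round 1 replicate 2 of 14 dpi (0.04) and without round 2 replicate 3 of 14 dpi (0.27). Lcp1 was at -1.48 (SE 1.42, adjusted p = 0.697).

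Whether the effect of injury on the 9 genes differed between days was tested as an interaction of injury and day. Between 5 and 1 dpi after resection 0 of 9 genes were called by edgeR, where 0% of all 19166 genes were, and the smallest adjusted p was 0.366. Between 5 and 1 dpi after cryoinjury 0 of 8 genes were called, where 0.00598% of all 16724 genes were, and the smallest adjusted p was 0.879. Between 14 and 5 dpi after cryoinjury 0 of 9 were called, where 0% of all 17979 genes were, and the smallest adjusted p was 0.803. In each of the 3 tests 0 of the genes had an unadjusted p under 0.05 and DESeq2 called 0. Without cryoinjury 5 dpi replicate 1, 0 genes were called in either of the 2 tests after cryoinjury, and csf1ra was at 3.81 (SE 4.99) between 5 and 1 dpi and at -1.89 (SE 2.76) between 14 and 5 dpi. The calls and misses of single days are therefore not shown to differ between days.

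Ordered by group mean, resection at 1 dpi was first for mpeg1.1, mpeg1.2, spi1b, irf8 and lcp1, cryoinjury at 1 dpi for coro1a and ptprc, cryoinjury at 5 dpi for csf1ra and sham at 1 dpi for csf1rb. Without cryoinjury 5 dpi replicate 1 the remaining heart of that group, with 30.2 CPM of mpeg1.1, 22.9 CPM of csf1ra and 78.4 CPM of ptprc, put it first for these 3 genes. Of the steps between neighbours in these orders, 3 were without overlap of the libraries, in CPM. Mpeg1.2 averaged 3.55 ± 2.90 CPM in resection at 1 dpi (SD, n = 3), above the 0.189 and 0.941 CPM of resection at 5 dpi. Lcp1 averaged 39.0 ± 13.1 CPM in resection at 1 dpi, above the 16.0 and 22.8 CPM of cryoinjury at 1 dpi, and coro1a in resection at 1 dpi lay above the next group, cryoinjury at 14 dpi. All other neighbours overlapped. After TMM the first place of spi1b, lcp1 and mpeg1.1 passed to cryoinjury at 1 dpi, with group means of 56.5, 25.8 and 17.0 CPM, and that of irf8 to sham at 1 dpi, with 9.08 CPM. Over the 21 libraries the share of the spread of log2(CPM + 1) that lay between groups was 6.32% for csf1rb, 29.0% for csf1ra, 41.5% for irf8, 50.6% for mpeg1.1, 54.3% for spi1b, 62.9% for lcp1, 65.8% for ptprc, 75.02% for coro1a and 78.2% for mpeg1.2, with a median of 50.5% over 13930 genes. Csf1rb thus varied mostly among hearts of the same group, and coro1a and mpeg1.2 mostly between groups. In groups this small part of such a share arises without any difference between groups, and that part was not computed. The median covers genes with at least 10 counts in at least 10 libraries, which mpeg1.2 did not reach. Without cryoinjury 5 dpi replicate 1 the share was 55.6% for csf1ra, 12.6% for csf1rb and 87.5% for coro1a. Its group then held 1 heart, which adds nothing to the spread within groups, and the median over all genes was not recomputed. These shares can therefore not be set against those of the 21 libraries.

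The balance within the duplicated receptor pair varied between libraries, while the levels of csf1ra and csf1rb had a Pearson correlation of 0.50 over the 21 libraries, on the log2(CPM + 1) scale (0.45 without cryoinjury 5 dpi replicate 1). Csf1ra made up 74.7%, 69.9% and 82.1% of the summed csf1ra and csf1rb counts in the 3 resected hearts of 1 dpi (95% Wilson intervals 64.4% to 82.8%, 59.9% to 78.3% and 76.7% to 86.4%), against 17.7%, 57.6% and 41.7% in sham of 1 dpi. The 3 resected hearts were above the 3 sham hearts. The interval of sham replicate 2, 44.9% to 69.4%, overlapped those of resection replicates 2 and 3. After cryoinjury at 1 dpi the share was 1.85% and 41.8%, and over all libraries it ran between 0% and 96.8%, both ends being sham hearts of 14 dpi, with 0 of 7 counts (a floor of 3 counts) and 30 of 31 counts. At 14 dpi after cryoinjury it was 90.0%, 20.9% and 27.0%. Mpeg1.2 made up 10.5%, 17.6% and 8.10% of the summed mpeg1 counts in resected hearts of 1 dpi. It had 0 of 929 counts in cryoinjury replicate 3 of 1 dpi, where the interval reached 0.412%. It made up 70.0% (35 of 50 counts; interval 56.2% to 80.9%) in sham 14 dpi round 1 replicate 1. Reads that match both copies of a pair could be assigned to either or to neither, so these shares carry that uncertainty.

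**Figure D5:**
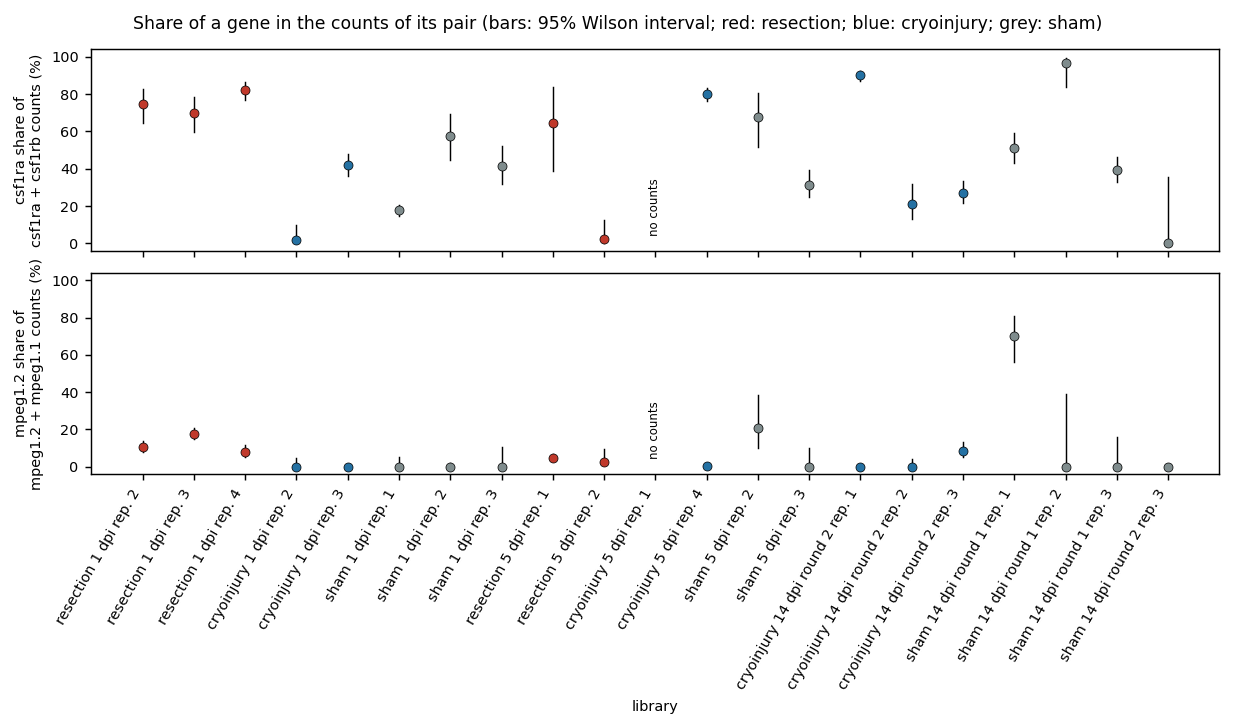
Share of csf1ra in the csf1ra and csf1rb counts and of mpeg1.2 in the mpeg1.1 and mpeg1.2 counts of each library, in percent, with 95% Wilson intervals. Csf1ra lies at 69.9% or above in the 3 resected hearts of 1 dpi and between 0% and 96.8% elsewhere, and mpeg1.2 exceeds 20.7% in 1 sham heart of 14 dpi alone.

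Across the 21 libraries, the 36 pairs of the 9 genes had Pearson correlations of log2(CPM + 1) between -0.44 and 0.73, with a median of 0.38. These are descriptions of libraries that share groups, depth and scaling. The highest were lcp1 with coro1a (0.73), mpeg1.1 with coro1a (0.72) and mpeg1.1 with lcp1 (0.72), and the lowest was csf1rb with irf8. Over the 20 libraries without cryoinjury 5 dpi replicate 1 they lay between -0.38 and 0.76, with a median of 0.38. Among 13922 other genes the patterns most like the mean of the 9 were those of paox1 (r = 0.89), a polyamine oxidase gene, ENSDARG00000088745 and ENSDARG00000090783 (0.89 and 0.86), both named MFAP4, ppdpfb (0.86) and FN1 (0.85), over 21 libraries. Genes of the mfap4 family are used as macrophage markers in zebrafish, and fibronectin is a matrix protein. Most like csf1ra were CDC42EP4 (0.76), kiz (0.75) and B3GALT6 (0.73), and most like lcp1 were ppdpfb (0.88), grna.1 (0.86), a granulin gene, and rac2 (0.84), a small GTPase of white blood cells. With TMM-scaled values ppdpfb dropped to rank 61 and FN1 to rank 18 of the likeness to the mean, while paox1 and both MFAP4 genes kept a rank of 4 or better. Without cryoinjury 5 dpi replicate 1 the genes named for the mean had ranks of 1 to 6, those for csf1ra 2 to 7 and those for lcp1 1 to 3. By Spearman rank correlation CDC42EP4, kiz and B3GALT6 had ranks of 37, 44 and 517 for csf1ra. The genes named for the mean then had ranks of 1 to 22 and those for lcp1 1 to 7.

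Genes that work with the receptors and with Spi1b, and leukocyte genes of actin and adhesion, were read from lists of named genes for comparison. Of the list around Csf1r and PU.1, which holds ligands, adaptors, kinases and transcription factors, 16 of 18 symbols were matched. At 1 dpi 2 of its 11 genes tested were called higher after resection than in sham, beside 11.3% of all genes, and 0 lower. Both, gfi1aa, a transcriptional repressor of blood progenitors, and myb, a stem and progenitor factor, were at 0 CPM in all 3 sham libraries. They passed the count filter through the resected libraries alone, so the test could only find them higher. Leaving out 1 library at a time, 0 to 177 of all genes were called in this comparison, where all libraries gave 2154. Gfi1aa was at 2.46 to 4.07 CPM after resection (adjusted p = 0.0316) and myb at 1.54 to 8.46 CPM (adjusted p = 0.0319, edgeR). Cebpb, a myeloid transcription factor and the most abundant gene of the list with a mean of 136 CPM over all libraries, was at 245 to 793 CPM after resection and 2.17 to 109.6 CPM in sham (adjusted p = 0.31). In the other 10 comparisons 0 of the 8 to 13 genes tested were called by edgeR. The median log2 fold change over sham was 0.68 for resection and -0.02 for cryoinjury at 1 dpi, 0.17 and 1.99 at 5 dpi and 1.29 for cryoinjury at 14 dpi, with medians of all genes of 0.26, -0.15, 0.08, -0.01 and -0.01.

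Of the list of actin and adhesion genes, 11 of 15 symbols were matched. Its medians over sham were 1.38 for resection and 1.51 for cryoinjury at 1 dpi, 1.86 and 1.78 at 5 dpi and 1.09 for cryoinjury at 14 dpi, and 0 of its genes were called by edgeR in these comparisons. Cfl1l, a cofilin that severs actin, was called lower in resection at 5 dpi than at 1 dpi (log2 fold change -5.36, SE 1.04, adjusted p = 0.0379), with 0.284 and 4.42 CPM at 5 dpi and 94.6 to 289 CPM at 1 dpi, 1 of 11 genes beside 1.03% of all genes called lower. Arpc1b, a subunit of the Arp2/3 complex and the most abundant of the list with a mean of 66.4 CPM, was at 133 to 237 CPM in resection at 1 dpi and 4.30 to 42.8 CPM in sham (adjusted p = 0.39).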

How the data were processed

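Biotin-labelled nuclei of 21 zebrafish hearts were sequenced. The authors aligned paired reads to danRer10 with STAR 2.4.2a and deposited a table of raw counts per gene from featureCounts with standard parameters. How reads matching several genes, strand or the transgene were treated was not given in the sources used here. Not used were 2 columns that fit no sample's labels, and 1 gene with missing values was left out. The members and lists were chosen with earlier results of these data known.

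Counts were divided by the library total to give CPM. Each comparison was fitted across all genes on the libraries of its groups with edgeR 4.0.16 in R 4.3.3 (filterByExpr, TMM factors, quasi-likelihood test, Benjamini-Hochberg adjustment, threshold 0.05). The fit was tried on simulated counts for resection against sham at 1 dpi and cryoinjury against sham at 14 dpi only. Changed genes were recovered at a low spread between libraries, and few or none at a higher spread. All genes shared the same spread there, unlike real genes, so how many real differences the tests would find was not tested. A gene that was not called may still differ. Alternatives were DESeq2 1.42.0, its size factors in edgeR, no filter, round as a covariate, all 21 libraries fitted together, replicate numbers as a block, each library left out in turn and, chosen after seeing the data, library totals without TMM, overlap and sums in TMM-scaled CPM, and differences between days, order, likeness and correlations without cryoinjury 5 dpi replicate 1. DESeq2 shares are over genes with an adjusted p. Likeness was the Pearson correlation of log2(CPM + 1) over genes with at least 10 counts in at least 10 libraries. Intervals of shares are 95% Wilson intervals and cover counting error only. Full statistics are printed for genes that were called, for the gene with the smallest p where none was, and for csf1ra and lcp1. Of the likeness the first 5 genes for the mean and the first 3 for csf1ra and lcp1 are named, and of each list the most abundant gene and those called. Each sample is 1 heart.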

Additional observations from a re-analysis of the deposited data

Results flagged for a closer look

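In the sham group of 14 dpi, the only group with 4 libraries, 1 heart lay far from the other 3 for mpeg1.1 and, by its zeros, for mpeg1.2. Mpeg1.1 was at 8.96 CPM in round 2 replicate 3, where the gap to the nearest sham heart divided by the range was 0.869, above the value that Dixon's test sets for 4 samples. Mpeg1.2 was at 0.757 CPM in round 1 replicate 1 and at 0 in the other 3, a ratio of 1.0 that any single value above 0 gives beside values of 0, so it says only that the other 3 hearts held no count. For values from a normal distribution chance gives a gap above that value in about 1 in 20 groups. Whether these CPM follow such a distribution was not tested, so the rate may not hold for them. In all 9 gene and group sets were examined.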

How the results depend on the processing

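The number of the 9 genes called was the same as reported under 52 of 60 alternatives that kept all libraries. After resection against sham at 1 dpi it was 2 with DESeq2 and 0 with no filter on low counts or with all 21 libraries in 1 fit. It was 1 with no filter for cryoinjury against sham at 14 dpi, and with DESeq2 it was 2 for resection against cryoinjury at 1 dpi, 1 for resection at 5 against 1 dpi and 1 for sham at 14 against 1 dpi. Same-numbered samples of 1 and 14 dpi did not deviate together (10 pairs, correlations between -0.0543 and 0.0266), and those of 5 dpi were not examined. Deviations from the mean of so few libraries are tied to each other, so this check cannot exclude pairing. With a replicate block the count for resection against sham at 1 dpi was 0 (mpeg1.2 9.12, adjusted p = 0.499), and 0 as without the block in the 3 other comparisons that could be blocked.

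Leaving out 1 library at a time, the number called was 0 to 0 for resection against sham at 1 dpi, 0 to 3 for resection against cryoinjury at 1 dpi, 0 to 2 for resection against cryoinjury at 5 dpi, 0 to 1 for resection at 5 against 1 dpi, 0 to 1 for cryoinjury at 5 against 1 dpi and 0 in the other 6. Signs turned within these ranges of the log2 fold change. For csf1ra they were -5.73 to 0.55 (cryoinjury against sham, 1 dpi), -8.07 to 3.37 (the same, 5 dpi), -0.97 to 2.53 (the same, 14 dpi), -0.094 to 6.29 (resection against cryoinjury, 1 dpi), -8.38 to 7.62 (cryoinjury, 5 against 1 dpi), -3.02 to 10.29 (cryoinjury, 14 against 5 dpi) and -1.15 to 0.70 (sham, 14 against 1 dpi). For lcp1 they were -0.66 to 2.94 (resection against sham, 5 dpi), -2.71 to 1.41 (resection against cryoinjury, 5 dpi) and -0.27 to 1.73 (cryoinjury, 14 against 5 dpi), for ptprc -1.74 to 1.32 and -1.68 to 1.34 in these last 2 comparisons, and for mpeg1.1 -7.75 to 4.09 (cryoinjury against sham, 5 dpi).

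With library totals in place of TMM lcp1 was at 1.01 for resection against cryoinjury at 1 dpi, -0.24 for the same at 5 dpi and -0.057 for cryoinjury at 14 against 5 dpi, and csf1ra at 0.16 for sham at 14 against 1 dpi. For resection against cryoinjury at 5 dpi lcp1 was at -0.0076 with DESeq2, -0.010 with its size factors and -0.022 with all libraries in 1 fit. The cause of these changes was not tested. TMM moved 11 of 72 group means by more than 1 SD, and 11 of 22 likeness values moved. Mpeg1.2 was above 3 counts in 7 of 21 libraries, so depth limits its folds to bounds in the groups without a count.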
